A study of Mus musculus with 15 samples.

Results

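The mitosis genes are 38 named genes that drive entry into mitosis, chromosome segregation and cytokinesis. They were taken by symbol from a table of 21886 genes and a second table of 14301 genes, and all 38 were found in both. RNA sequencing was done on prostate epithelial cells of C57BL/6 mice grown as organoids, which are small clusters of epithelium cultured in a gel matrix. The groups set loss of the histone methyltransferases Setd2 and Ezh2, alone and together, beside cells with neither loss. The 4 groups of the first table came from 3-month-old mice. They were double null (Setd2PC-/-;Ezh2PC-/-), Ezh2 null (Ezh2PC-/-), Setd2 null (Setd2PC-/-) and control (neither deletion). The 2 groups of the second table came from 2-month-old mice. They were K735R (Ezh2K735R), a lysine-to-arginine change in Ezh2, and wild-type Ezh2. The labels do not spell out "PC", and the Cre driver is not given in the sources used here. There were 2 libraries per group. A library of the 4 groups named first held equal masses of RNA from 3 biological replicates, so p-values measure the spread between pools and not between animals. For the other 2 groups no pool size is given.

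At entry into mitosis, cyclin B and its kinase Cdk1 are switched on by Cdc25 phosphatases, while Plk1 and Aurora kinases mature the spindle poles and recruit the machinery of the centromere. Chromosomes then attach to spindle microtubules through the kinetochore, and the spindle checkpoint holds back the anaphase-promoting complex, a ubiquitin ligase that destroys securin and cyclin B, until every kinetochore is attached. The genes are transcribed late in the cell cycle, when MuvB complexes with B-Myb and Foxm1 act at a short promoter element named CHR (cell cycle genes homology region), often beside CCAAT boxes bound by NF-Y. In prostate epithelium, as in other tissues, their RNA is commonly read as a measure of how many cells are dividing.

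Values of the first 4 groups are RPKM (reads scaled to gene length and to library depth) and those of the other 2 are CPM (counts scaled to library depth by TMM). Reads recovered from the RPKM values totalled 48285691 and 49816296 in double null, 54155164 and 46871774 in Ezh2 null, 32173171 and 34847360 in Setd2 null, and 29660545 and 29762907 in control libraries. Counts totalled 30404095 and 29221905 in K735R and 28831228 and 37482322 in wild-type libraries. The RPKM of Setd2 was 8.99 and 7.54 in double null, 14.6 and 11.6 in Ezh2 null, 8.75 and 10.3 in Setd2 null and 17.0 and 16.1 in control libraries, and that of Ezh2 was 16.6 and 14.2 in double null, 13.8 and 11.6 in Ezh2 null, 24.2 and 20.7 in Setd2 null and 19.4 and 20.8 in control libraries. For each gene the libraries labelled as deleted were all below the others. The CPM of Ezh2 was 46.9 and 47.9 in K735R and 58.2 and 39.7 in wild-type libraries. With 1 value per gene, RNA that lacks only the deleted exons still counts towards these levels. Epithelial keratins, Epcam and Cdh1 were present in every library. All 38 members passed the filters on low values, a mean of at least 1 RPKM in the first table and edgeR's count filter in the second.

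The promoters of the members were read from RefSeq on build GRCm38.p6, from 250 bases before to 50 after the start of the gene. The table holds promoters of 27025 genes, among them 31 of the 38 members (none was matched for Ccna2, Cdc25c, Foxm1, Aurkb, Incenp, Tpx2 and Kif20a). The CHR element (TTTGAA or TTCGAA) stood in the promoters of 25 of the 31 (80.6%), against 21.7% of all genes. In the 250 bases before the start alone it stood in 11 (35.5%), against 45.8% of 72 other mitotic genes and 19.6% of all genes. The CCAAT box (CCAAT) stood in 24 (77.4%), against 41.1% of all genes, and both motifs together in 22 (71.0%), against 8.61% (32.3% in the 250 bases before the start). An E2F-like site (TTCCCGC or TTCGCGC, and also TTGCCGC or TTGGCGC), the mark of genes used at DNA replication, stood in 5 (16.1%), against 10.9% of all genes. In the promoters of 32 DNA replication genes the order was the other way about, with a CHR element in 7 (21.9%) and an E2F-like site in 22 (68.8%). The CCAAT box stood in 21 of these replication genes (65.6%), so it was not particular to the members. Of the 72 other mitotic genes, 59.7% held a CHR element, 66.7% a CCAAT box and 44.4% both. Both stood in the 250 bases before the start alone in 31.9% of those 72. Motifs were searched on both strands, TTCGAA reads the same on both and was counted on each, and a CCAAT box can overlap an E2F-like site on the other strand. Ect2 and Prc1 have a pair of starts each, so that 33 promoters were searched and the 41 CHR matches stand for 34 sites in the genome. The 41 CHR matches lay between positions −188 and 40 relative to the gene start, with a median of −5. The 62 CCAAT matches, at 58 sites, lay between −228 and 18, with a median of −67.5. A match is a run of letters and not a measured binding site.

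The promoters of the 5 members with the highest mean RPKM among those that hold both motifs are given here, since these are the most abundant of them, followed by that of Pttg1, whose values run opposite to the rest and which was chosen after its values were seen. Each is written 5′ to 3′ on the strand of the gene, and capitals mark CHR elements and CCAAT boxes on either strand.
Ube2c (chr2:164769679-164769978, plus strand): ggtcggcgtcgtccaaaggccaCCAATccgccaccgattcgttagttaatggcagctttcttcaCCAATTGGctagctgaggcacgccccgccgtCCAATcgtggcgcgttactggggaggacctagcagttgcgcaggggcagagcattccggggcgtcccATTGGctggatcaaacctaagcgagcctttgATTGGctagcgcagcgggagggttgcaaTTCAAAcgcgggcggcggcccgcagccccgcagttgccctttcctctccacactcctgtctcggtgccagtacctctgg
Top2a (chr11:99024140-99024439, minus strand): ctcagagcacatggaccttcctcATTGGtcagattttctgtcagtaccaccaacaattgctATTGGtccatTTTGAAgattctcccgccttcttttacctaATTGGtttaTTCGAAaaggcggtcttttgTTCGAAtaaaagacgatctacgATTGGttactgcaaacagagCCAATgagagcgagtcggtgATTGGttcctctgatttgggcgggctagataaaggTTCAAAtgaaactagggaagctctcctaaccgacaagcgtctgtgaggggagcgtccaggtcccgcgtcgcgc
Cdc20 (chr4:118437294-118437593, minus strand): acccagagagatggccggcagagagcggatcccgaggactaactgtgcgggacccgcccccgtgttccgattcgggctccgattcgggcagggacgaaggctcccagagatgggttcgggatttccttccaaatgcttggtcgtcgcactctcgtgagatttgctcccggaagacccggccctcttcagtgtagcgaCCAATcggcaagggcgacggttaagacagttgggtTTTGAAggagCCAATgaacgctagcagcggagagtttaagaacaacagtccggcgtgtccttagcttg
Mki67 (chr7:135716330-135716629, minus strand): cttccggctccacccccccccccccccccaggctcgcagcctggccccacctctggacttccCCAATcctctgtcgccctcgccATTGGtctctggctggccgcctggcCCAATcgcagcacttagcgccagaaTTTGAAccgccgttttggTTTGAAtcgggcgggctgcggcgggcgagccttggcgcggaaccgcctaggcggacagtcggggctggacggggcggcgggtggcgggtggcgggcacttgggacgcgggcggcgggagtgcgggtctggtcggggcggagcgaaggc
Ccnb2 (chr9:70421505-70421804, minus strand): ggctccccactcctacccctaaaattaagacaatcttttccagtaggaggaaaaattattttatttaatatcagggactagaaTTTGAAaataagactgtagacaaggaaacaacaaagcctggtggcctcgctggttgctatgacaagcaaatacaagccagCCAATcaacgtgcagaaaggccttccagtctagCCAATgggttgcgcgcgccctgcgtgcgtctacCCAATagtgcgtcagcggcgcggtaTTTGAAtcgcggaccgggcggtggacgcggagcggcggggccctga
Pttg1 (chr11:43425932-43426231, minus strand): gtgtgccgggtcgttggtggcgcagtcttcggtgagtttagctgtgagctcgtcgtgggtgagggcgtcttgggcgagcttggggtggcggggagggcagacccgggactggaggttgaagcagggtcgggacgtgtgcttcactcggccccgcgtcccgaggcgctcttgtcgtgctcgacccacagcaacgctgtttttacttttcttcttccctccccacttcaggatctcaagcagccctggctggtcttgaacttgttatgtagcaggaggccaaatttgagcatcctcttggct
Top2a held 6 CHR matches at 4 sites and 6 CCAAT matches, the CCAAT boxes of Ube2c numbered 6 with 1 CHR element, and Cdc20 held 1 CHR element and 2 CCAAT boxes. Mki67 held 2 CHR elements, 3 CCAAT boxes and 1 E2F-like site, and Ccnb2 held 2 CHR elements and 3 CCAAT boxes. The Pttg1 window had no match of any of the 3 kinds, which says only that these letters are not in this window. On the deposited coordinates, given below with its RPKM, the Pttg1 window lies wholly inside the gene. The bases before the deposited start of Pttg1 were therefore not searched. Birc5, Nuf2 and Nusap1 also had neither a CHR element nor a CCAAT box.

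Every member was expressed in every library. The mean RPKM over the 8 libraries of the first table ran between 3.98 for Cdc25c and 70.4 for Ube2c, with a median of 14.8, and no member had fewer than 109 recovered reads in a library. Summed over the 38 members, the RPKM was 895 and 843 in double null, 839 and 778 in Ezh2 null, 642 and 471 in Setd2 null, and 448 and 429 in control libraries. By the labels, Ezh2 was deleted in the double null and Ezh2 null libraries, called libraries without Ezh2 from here on. These 4 libraries were all above the 4 with it, and Setd2 null 1 stood between them and the rest. In bulk samples, fewer dividing cells and less RNA per dividing cell cannot be told apart.

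**Figure D1:**
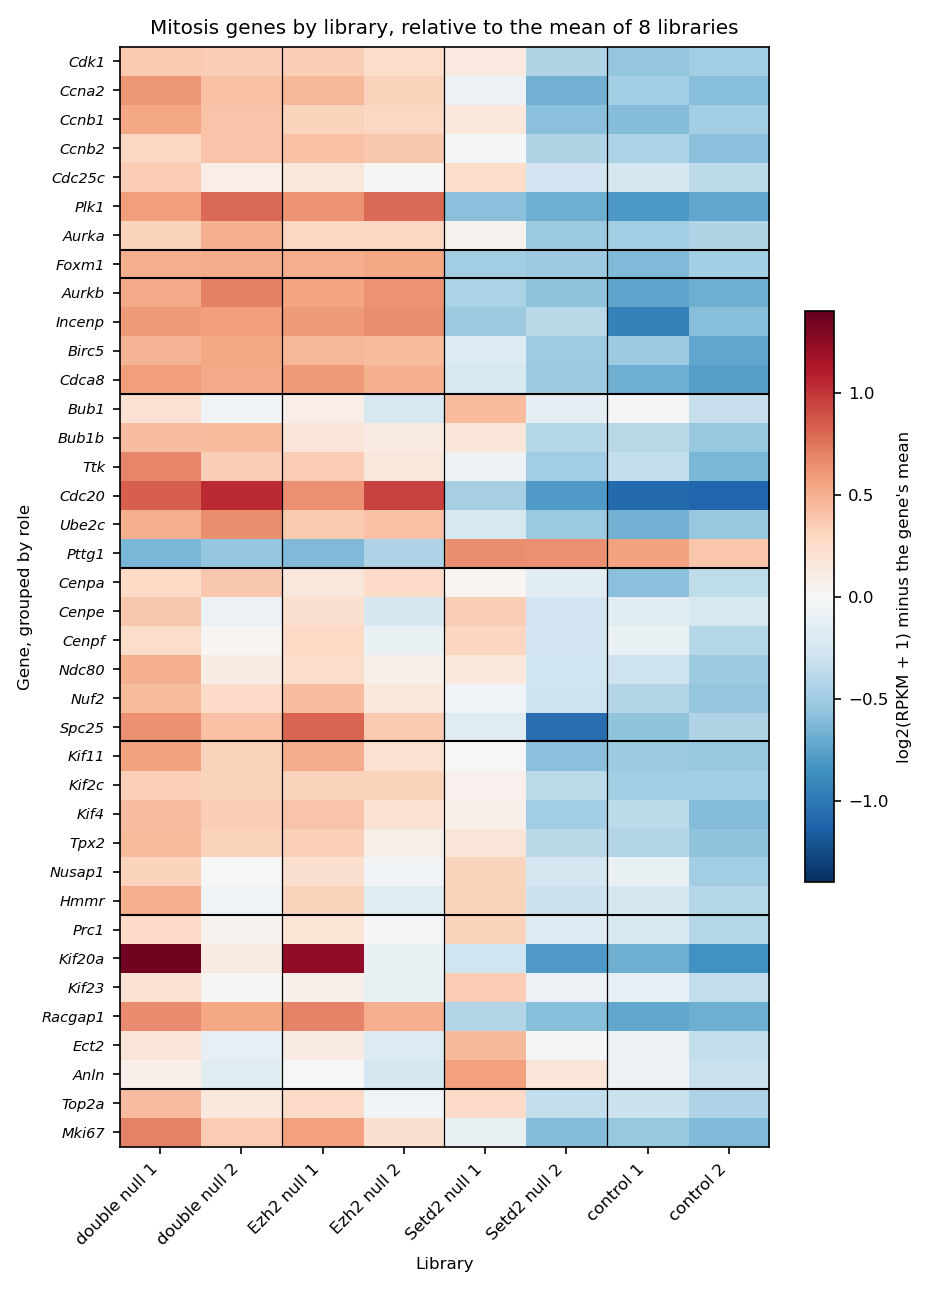
Level of each of the 38 mitosis genes (rows, grouped by role) in each of the 8 libraries of the first table (columns), as log2(RPKM + 1) minus the mean of the gene over the libraries; red is above and blue below that mean. Most rows are red in the 4 libraries without Ezh2 and blue in control and Setd2 null 2, Pttg1 runs the other way, and Setd2 null 1 is the redder of the Setd2 null libraries.

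Loss of Ezh2 was compared in 2 backgrounds that share no library, Ezh2 null against control and double null against Setd2 null. Both were fitted in 1 model and share its estimate of the spread of each gene. Over all genes tested, the difference between libraries 1 and 2 in Ezh2 null correlated with that in double null at 0.933. The 2 comparisons are therefore not independent of each other. In Ezh2 null cells 25 of the 38 members rose and 1, Pttg1, fell (limma on log2(RPKM + 1), adjusted p under 0.05), where 36.1% of the 11338 genes tested rose and 20.5% fell (56.6% in either direction). In double null cells against Setd2 null cells 24 rose and again Pttg1 fell, where 35.6% of all genes rose and 19.4% fell (55.0% in either direction). The median log2 fold change of the members was 0.78 in Ezh2 null cells and 0.56 in double null cells, and that of all genes was 0.18 in both comparisons. With quantile normalization the median of all genes was 0.01 in Ezh2 null cells, with 3177 genes higher and 3158 lower in place of 4096 and 2320, and the members had a median of 0.60 with 23 higher and 1 lower. The same scaling put double null cells at 2921 genes higher and 3122 lower in place of 4036 and 2205, and the members at a median of 0.39 with 17 higher and 2 lower. Libraries did not overlap for 32 members that were higher and 1 that was lower in Ezh2 null (50.9% and 30.6% of all genes), and for 25 higher and 2 lower in double null against Setd2 null (48.4% and 27.8%).

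**Figure D2:**
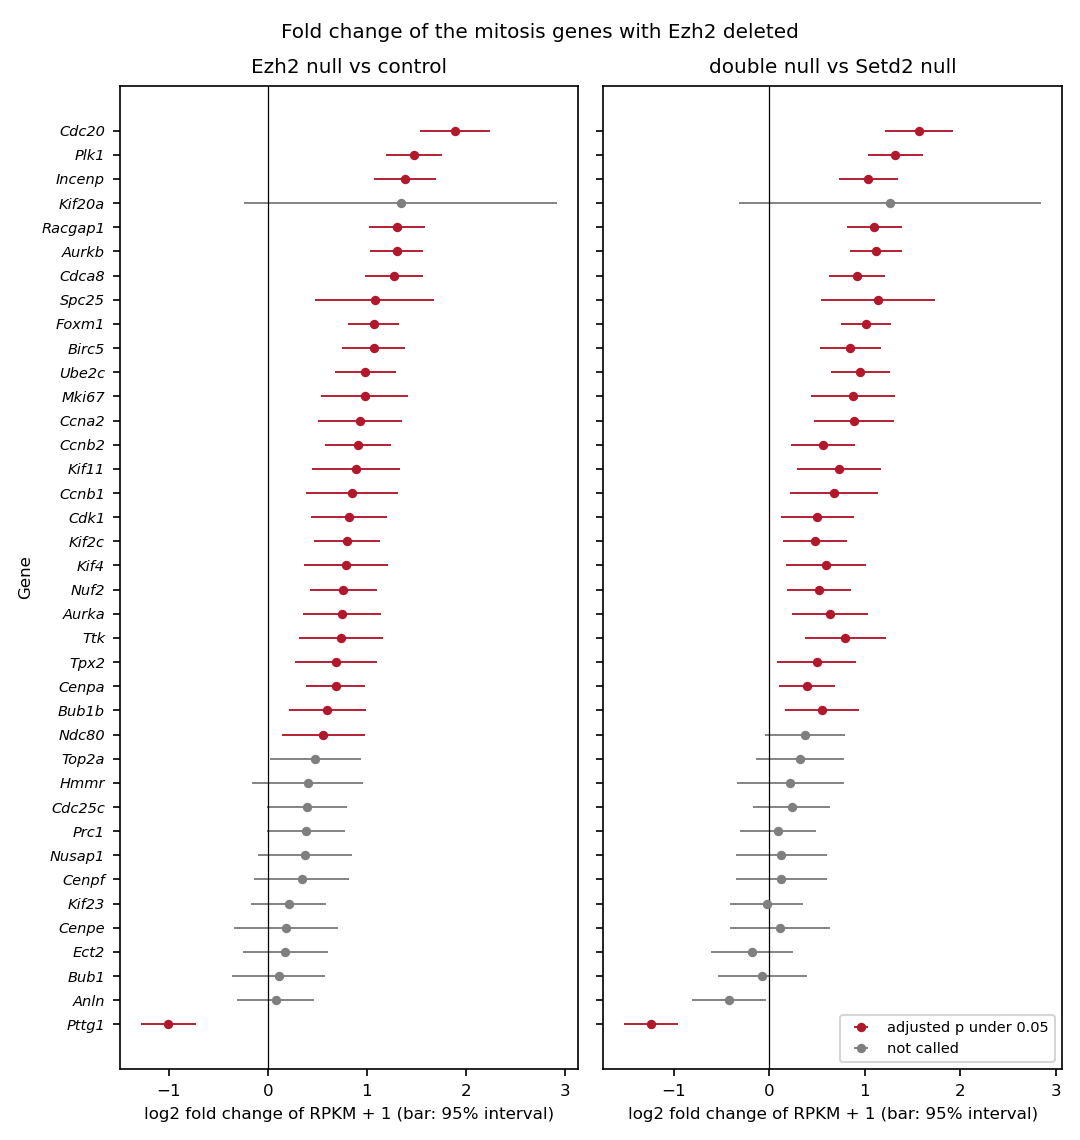
Log2 fold change of RPKM + 1 (horizontal axis) with its 95% interval for each of the 38 members (rows), in Ezh2 null against control (left) and in double null against Setd2 null (right); red marks an adjusted p under 0.05. Cdc20 and Plk1 stand at the top of the called members on both sides with 1.89 and 1.48 on the left, and Pttg1 is the single called member below 0.

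Among the 7 kinases, cyclins and phosphatase of mitotic entry, 6 rose in each comparison, and Cdc25c, the phosphatase that activates Cdk1, did not pass in either. Plk1 (chr7:122159435-122169884, mm10), the Polo kinase of spindle poles and kinetochores, had the largest change of the role, with an RPKM of 29.9 and 34.8 in double null, 31.0 and 34.7 in Ezh2 null, 12.8 and 11.8 in Setd2 null and 10.8 and 11.4 in control libraries. Its log2 fold change was 1.48 ± 0.127 (SE) in Ezh2 null against control (limma adjusted p = 1.13e-05) and 1.32 ± 0.127 in double null against Setd2 null (2.47e-05). The 4 libraries without Ezh2 were all above the 4 with it. The RPKM of Ccnb2, a B-type cyclin, was 32.1 and 34.7 in double null, 34.9 and 34.2 in Ezh2 null, 25.8 and 19.2 in Setd2 null and 18.9 and 17.0 in control libraries. That of Ccnb1, the cyclin that makes Cdk1 active at mitosis, was 36.3 and 32.8 in double null, 30.9 and 30.5 in Ezh2 null, 27.6 and 16.2 in Setd2 null and 15.9 and 17.3 in control libraries. In both cyclin genes the groups with and without Ezh2 were apart, but Setd2 null 1 was the nearest below the libraries without Ezh2. Ccnb2 rose by 0.91 in Ezh2 null (limma adjusted p = 0.000683) and by 0.56 in double null (adjusted p = 0.0103), on the log2 scale. Ccnb1 rose by 0.85 (limma adjusted p = 0.00607) and by 0.68 (adjusted p = 0.0185). Cdk1, Ccna2 (cyclin A of S phase and early mitosis) and Aurka (the spindle pole Aurora kinase) rose by 0.75 to 0.93 in Ezh2 null and by 0.50 to 0.89 in double null cells.

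Foxm1 (chr6:128362994-128375886), the forkhead factor that activates many of the other members, rose in both comparisons. Its RPKM was 10.9 and 11.03 in double null, 10.9 and 11.2 in Ezh2 null, 4.96 and 4.89 in Setd2 null and 4.46 and 5.01 in control libraries. No library with Ezh2 reached the level of a library without it, and libraries of 1 group were close to each other. The log2 fold change was 1.07 ± 0.115 (SE, limma adjusted p = 4.84e-05) in Ezh2 null and 1.01 ± 0.115 (7.24e-05) in double null cells. All 4 members of the chromosomal passenger complex, which corrects faulty attachments and starts cytokinesis, rose in both comparisons as well. The RPKM of Incenp, the scaffold of the complex, was 29.7 and 29.5 in double null, 29.7 and 30.8 in Ezh2 null, 13.3 and 14.6 in Setd2 null and 9.59 and 12.5 in control libraries. That of Cdca8 (borealin) was 29.9 and 28.6 in double null, 30.0 and 28.03 in Ezh2 null, 16.6 and 13.5 in Setd2 null and 11.8 and 11.01 in control libraries. Both genes separated the libraries by Ezh2 with no overlap. Incenp rose by 1.39 in Ezh2 null (limma adjusted p = 2.93e-05) and by 1.04 in double null cells (0.000199), and Cdca8 by 1.28 (3.45e-05) and 0.92 (0.000284). Aurkb, the kinase of the complex, rose by 1.30 and 1.12, and Birc5 (survivin) by 1.07 and 0.85.

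The checkpoint and anaphase-promoting complex genes held the largest rise and the only fall. Cdc20 (chr4:118432901-118437343), which activates the complex at anaphase, was at 63.1 and 72.8 in double null, 54.5 and 67.7 in Ezh2 null, 24.9 and 19.6 in Setd2 null and 15.8 and 15.6 in control libraries, in RPKM. The lowest library without Ezh2, at 54.5 RPKM, was above the highest with it, at 24.9. The log2 fold change was 1.89 ± 0.158 (SE, limma adjusted p = 9.24e-06), a 3.71-fold rise, in Ezh2 null and 1.57 ± 0.158 (3.29e-05) in double null cells. Ube2c, the ubiquitin-conjugating enzyme of the complex, was at 94.9 and 105 in double null, 85.8 and 88.2 in Ezh2 null, 56.4 and 46.1 in Setd2 null and 41.4 and 45.6 in control libraries. It rose by 0.99 (limma adjusted p = 0.000255) and by 0.95 (0.000334), again with no overlap between libraries with and without Ezh2. Pttg1 (chr11:43420248-43426248) encodes securin, the protein that holds separase back and that Cdc20 and the complex send to destruction. Its RPKM was 5.69 and 6.14 in double null, 5.76 and 6.71 in Ezh2 null, 15.4 and 15.2 in Setd2 null and 14.3 and 12.6 in control libraries, so that the 4 libraries without Ezh2 were the lowest. The fall was −1.003 ± 0.125 on the log2 scale (limma adjusted p = 0.000122) in Ezh2 null and −1.24 ± 0.125 (3.45e-05) in double null cells. Espl1, the separase gene, stands in the list of other mitotic genes, and rose by 1.22 (limma adjusted p = 2.43e-05) and 1.16 (3.58e-05). Of the checkpoint kinase genes, Ttk and Bub1b (BubR1) rose in both comparisons and Bub1 did not pass in either.

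The kinetochore genes were divided. Cenpa, the histone H3 variant of centromeres, was at 30.7 and 32.8 in double null, 28.2 and 30.3 in Ezh2 null, 25.5 and 22.3 in Setd2 null and 16.4 and 19.3 in control libraries, in RPKM. It rose by 0.68 in Ezh2 null (limma adjusted p = 0.00172) and by 0.40 in double null cells (0.0275). Cenpf, a large kinetochore and nuclear matrix protein, was at 10.03 and 8.39 in double null, 10.2 and 7.63 in Ezh2 null, 10.4 and 6.64 in Setd2 null and 7.65 and 5.99 in control libraries. There Setd2 null 1 was as high as any library without Ezh2, the groups overlapped, and the log2 fold change in Ezh2 null of 0.34 did not pass (limma adjusted p = 0.197, 95% interval −0.14 to 0.82). Of the Ndc80 complex, which binds microtubules, Nuf2 and Spc25 rose in both comparisons and Ndc80 in Ezh2 null only, its log2 fold change being 0.56 there (limma adjusted p = 0.0272) and 0.37 in double null cells (0.117). The difference between those 2 values, tested as an interaction with limma, did not pass (−0.19, 95% interval −0.78 to 0.40). The motor gene Cenpe did not pass in either comparison.

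Of the 6 spindle motors and assembly factors, 4 rose in both comparisons. Tpx2, which activates Aurora A on the spindle, was at 21.8 and 20.0 in double null, 20.1 and 16.7 in Ezh2 null, 17.8 and 11.7 in Setd2 null and 11.6 and 10.4 in control libraries, in RPKM. Kif11, the motor that pushes spindle poles apart, was at 16.5 and 13.7 in double null, 15.96 and 12.7 in Ezh2 null, 10.9 and 6.86 in Setd2 null and 7.28 and 7.19 in control libraries. For both genes Setd2 null 1 was the highest library with Ezh2, above Ezh2 null 2 for Tpx2 and below every library without Ezh2 for Kif11. Kif11 rose by 0.89 in Ezh2 null (limma adjusted p = 0.00368) and by 0.73 in double null cells (0.0106), and Tpx2 by 0.69 (0.00984) and 0.50 (0.0432). Kif2c, a microtubule depolymerase, and Kif4, a chromokinesin, rose by 0.80 and 0.79 in Ezh2 null and by 0.48 and 0.60 in double null cells. Nusap1 and Hmmr, which bundle and anchor spindle microtubules, did not pass in either.

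The central spindle and cytokinesis genes had the lowest median log2 fold change of the 8 roles in Ezh2 null against control, 0.30, and 1 of 6 rose in each comparison. That gene was Racgap1 (chr15:99620496-99651656), the GTPase-activating subunit of centralspindlin, at 29.7 and 27.4 in double null, 30.5 and 26.7 in Ezh2 null, 13.7 and 11.9 in Setd2 null and 10.8 and 11.1 in control libraries, in RPKM. Its libraries were apart by Ezh2 with no overlap, and it rose by 1.31 ± 0.127 (SE, limma adjusted p = 2.49e-05) in Ezh2 null and by 1.102 ± 0.127 (7.89e-05) in double null cells. Kif23, the motor subunit of the same complex, had values of 19.7 and 17.2 in double null, 17.9 and 15.8 in Ezh2 null, 22.1 and 15.97 in Setd2 null and 15.6 and 13.2 in control libraries, with double null and Setd2 null overlapping, and did not pass. Prc1, the bundling protein of the spindle midzone, was at 29.9 and 25.6 in double null, 28.2 and 24.1 in Ezh2 null, 30.7 and 21.7 in Setd2 null and 21.0 and 18.5 in control libraries, and Setd2 null 1 was its highest library. Prc1 did not pass in Ezh2 null (log2 fold change 0.39, limma adjusted p = 0.0861) or in double null cells (0.668). Anln, the actin-binding protein anillin of the cleavage furrow, was at 19.0 and 15.98 in double null, 18.2 and 15.1 in Ezh2 null, 27.5 and 20.5 in Setd2 null and 17.1 and 14.4 in control libraries. Here the Setd2 null libraries were the highest of all 8, and the log2 fold change was 0.08 in Ezh2 null (limma adjusted p = 0.714) and −0.42 in double null cells (0.0617). The second value was called lower under 5 of 16 other settings, among them quantile normalization, median-ratio scaling, edgeR on the recovered reads and leaving out Setd2 null 2, with an adjusted p of 0.00398 to 0.335 over all settings. The value in Ezh2 null changed sign under quantile normalization, median-ratio scaling and edgeR on the recovered reads, and without Ezh2 null 1 or control 2.

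Kif20a, a cytokinesis motor, had values of 21.9 and 8.69 in double null, 20.2 and 7.43 in Ezh2 null, 6.38 and 4.18 in Setd2 null and 4.60 and 3.97 in control libraries, in RPKM. In each group without Ezh2 the library numbered 1 was more than 2-fold above the library numbered 2, and the log2 fold changes of 1.34 and 1.27 did not pass (limma adjusted p = 0.122 and 0.142). Both were called with a replicate block in the model (limma adjusted p = 0.00801 and 0.0104). The labels do not say that a library number marks a shared source. Kif20a overlaps Cdc23, on the opposite strand, over 4930 bases, and Brd8 over 240, and the RPKM of Cdc23 was 14.8 and 7.31 in double null, 13.7 and 7.63 in Ezh2 null, 5.09 and 5.06 in Setd2 null and 5.08 and 4.57 in control libraries, with the same libraries high. Strandedness is not given in the sources used here, so reads of the pair cannot be told apart. Other overlaps with genes on the opposite strand exist for Prc1 with Rccd1 (21669 bases, which holds nearly the whole of Prc1, where Rccd1 averaged 1.601 RPKM), Anln (2001 bases), Ccna2 (863), Nusap1 (208), Cdc20 (53) and Aurka (21).

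Both genes of chromosome structure are abundant, and 1 of them passed. Mki67, the Ki-67 protein that coats mitotic chromosomes, was at 49.3 and 38.8 in double null, 45.5 and 35.4 in Ezh2 null, 28.02 and 19.5 in Setd2 null and 20.6 and 19.2 in control libraries, in RPKM, with all libraries without Ezh2 on top. It rose by 0.98 in Ezh2 null (limma adjusted p = 0.00219) and by 0.87 in double null cells (0.00428). Top2a, the topoisomerase that untangles sister chromosomes, was at 61.8 and 50.3 in double null, 55.0 and 44.2 in Ezh2 null, 54.8 and 35.6 in Setd2 null and 36.7 and 33.5 in control libraries. Setd2 null 1 was within the range of the libraries without Ezh2, and Top2a did not pass in Ezh2 null (log2 fold change 0.48, 95% interval 0.02 to 0.94, limma adjusted p = 0.0706) or in double null cells (0.33, adjusted p = 0.204).

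Several calls rest on 1 library. In Ezh2 null against control, with limma, Ttk was lost without control 2, Spc25 without Ezh2 null 1 or control 1, Tpx2 without Ezh2 null 1 or control 2, Bub1b without control 2, and Ndc80 without Ezh2 null 1 or either control library. Bub1b and Ndc80 were also lost with quantile normalization, median-ratio scaling and edgeR on the recovered reads, and Ndc80 with no filter on low values. In double null against Setd2 null the 25 called members became 14 without Setd2 null 2, the lower of its group, 16 without double null 1 and 19 without double null 2. Without Setd2 null 2 the calls lost were Cdk1, Ccnb1, Ccnb2, Aurka, Bub1b, Ttk, Cenpa, Nuf2, Kif11, Kif2c, Kif4 and Tpx2. Without double null 1 they were Cdk1, Ccnb1, Bub1b, Cenpa, Nuf2, Kif11, Kif2c, Kif4 and Tpx2, without double null 2 they were Cdk1, Ccnb2, Aurka, Bub1b, Cenpa, Kif2c and Tpx2, and Cdk1 and Tpx2 were also lost without either control library. For that comparison the share of all genes called with 1 library left out is not given here. Median-ratio scaling and edgeR on the recovered reads each called 16 members there (42.1%), 14 higher and 2 (Pttg1 and Anln) lower. Of all genes, 52.2% were called with median-ratio scaling (2940 higher and 2981 lower) and 49.5% with edgeR (3871 and 3377). The calls of Cdk1, Bub1b, Cenpa, Nuf2, Kif2c, Kif4 and Tpx2 were lost with quantile normalization and with both of these settings, and those of Ccnb1, Ccnb2 and Aurka with both of these settings.

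Other measures moved with the loss of Ezh2. The summed RPKM of 9 stromal markers was 33.9 and 29.3 in double null, 34.3 and 32.8 in Ezh2 null, 2.16 and 3.27 in Setd2 null, and 4.24 and 2.78 in control libraries. The 4 stromal genes tested (Col1a1, Col1a2, Col3a1 and Dcn) all rose in both comparisons, and Lum was at 0 in the Setd2 null and control libraries. Of 6 immune markers, the macrophage gene Lyz2 was at 2.67 and 3.02 RPKM in double null and 7.69 and 8.20 in Ezh2 null libraries. Lyz2, Adgre1, Ptprc and Cd3e were all at 0 in Setd2 null and control libraries. Summed over the 6 markers, the RPKM was 13.6 and 14.9 in double null, 13.0 and 13.8 in Ezh2 null, 33.0 and 39.5 in Setd2 null, and 21.9 and 24.6 in control libraries. Cd68, which is not confined to macrophages, was at 10.6 and 11.6 in double null, 4.24 and 4.42 in Ezh2 null, 33.0 and 39.5 in Setd2 null and 21.8 and 24.6 in control libraries. The sum of 4 endothelial markers was 1.92 to 3.15 in the libraries without Ezh2 and 0.532 to 0.658 in those with it. Epithelial markers moved in both directions, with Epcam, an epithelial adhesion protein, lower (log2 fold change −1.81 in Ezh2 null against control, limma adjusted p = 2.94e-06, and −1.87 in double null against Setd2 null, 2.84e-06) and the basal keratin Krt5 higher (1.16, 0.000299, and 1.82, 1.81e-05). Krt18, a luminal keratin, was lower in both (−0.50, limma adjusted p = 0.0180, and −0.81, 0.00143), and the adhesion gene Cdh1 fell in Ezh2 null cells (−0.51, 0.0150). Krt8 fell in double null against Setd2 null cells (−0.69, limma adjusted p = 0.00711), where the basal genes Krt14 (0.89, 0.0162) and Trp63 (0.52, 0.00346) rose. Recovered depth was also higher without Ezh2. The part of these measures in the result was not tested.

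Loss of Setd2 was compared in Setd2 null against control and in double null against Ezh2 null. In Setd2 null cells 37 of the 38 members had a positive log2 fold change, with a median of 0.30 against −0.02 for all genes, but none passed limma's test at an adjusted p under 0.05, where 0.379% of all genes rose and 0.688% fell (1.07% in either direction). The count at an unadjusted p under 0.05 was 6 (15.8%, against 11.6% of all genes). EdgeR on the recovered reads also called 0 members, against 0.929% of all genes. The smallest p was that of Anln (log2 fold change 0.57 ± 0.172 SE, limma adjusted p = 0.218), followed by Cenpa (0.40, adjusted p = 0.252), Cdc20 (0.47, 0.262), Cdca8 (0.36, 0.299) and Incenp (0.32, 0.407). With a replicate block in the model Anln alone was called, higher in Setd2 null (limma adjusted p = 0.0287). Libraries did not overlap for 20 members that were higher in Setd2 null, where 18.5% of all genes did the same. Foxm1 had a log2 fold change of 0.05 with a 95% interval of −0.21 to 0.31, and Mki67 one of 0.22 with −0.22 to 0.66. Spc25 was the single member below 0, at −0.13 with −0.73 to 0.48. These counts rest in large part on Setd2 null 1. Without it 28 members were positive and 10 negative, the median was 0.08 and 2 had an unadjusted p under 0.05 (limma), and without Setd2 null 2 all 38 were positive, the median was 0.52 and 28 had an unadjusted p under 0.05, where 9.94% and 19.6% of all genes did. Without either control library 2 members had an unadjusted p under 0.05, and in none of these 4 settings was a member called. In these fits the lone library was assumed to vary like the other groups.

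In cells that already lacked Ezh2, the further loss of Setd2 left 32 members with a positive and 6 with a negative log2 fold change, and a median of 0.09. Of all genes, 45.9% were positive, with a median of −0.02. No member passed (limma, where 3.79% of all genes rose and 2.70% fell, 6.49% in either direction). The count at an unadjusted p under 0.05 was 0, against 15.7% of all genes. EdgeR on the recovered reads called 0 members, against 5.12% of all genes. The differences between libraries 1 and 2 of these groups correlated at 0.933, and the test, which did not pair libraries, does not take up this shared variation. The smallest p-values belonged to Bub1b (0.29, limma adjusted p = 0.519, 95% interval −0.09 to 0.68), Ube2c (0.20, adjusted p = 0.640), Ttk (0.26, 0.657), Cdc20 (0.15, 0.820) and Tpx2 (0.18, 0.821). Libraries did not overlap for 7 members, all higher in double null (19.5% of all genes were higher in that way). Foxm1, at 10.9 and 11.03 RPKM in double null and 10.9 and 11.2 in Ezh2 null libraries, had a log2 fold change of −0.01 with a 95% interval of −0.27 to 0.25.

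Whether both deletions together differed from the sum of each was tested as an interaction. The estimate was below 0 for 36 of the 38 members, with a median of −0.19 against −0.01 for all genes, but no member passed (limma, where 1.69% of all genes were called above 0 and 0.900% below, 2.59% in either direction). No member had an unadjusted p under 0.05, where 10.3% of all genes did. EdgeR on the recovered reads called 0 members, against 1.53% of all genes. Anln had the smallest p (−0.50, limma adjusted p = 0.550), then Cdca8 (−0.35, 0.614), Incenp (−0.35, 0.667), Ccnb2 (−0.35, 0.738) and Cenpa (−0.29, 0.793). The estimates and the comparisons above use the same 8 libraries, so the signs of the members are not independent of them.

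With both genes lost, double null against control, 28 members rose and Pttg1 fell (limma adjusted p under 0.05), where 34.2% of all genes rose and 20.0% fell (54.2% in either direction), and the median was 0.87 against 0.15 for all genes. With quantile normalization 2937 genes rose and 3156 fell in place of 3874 and 2273, and 25 members rose and 1 fell, with a median of 0.73. All 7 entry genes rose, with Foxm1, all 4 passenger complex genes, 4 of 6 checkpoint and anaphase-promoting complex genes, 4 of 6 kinetochore genes, 4 of 6 spindle genes, 2 of 6 cytokinesis genes and both chromosome genes. Cdc20 rose by 2.04 on the log2 scale (limma adjusted p = 6.16e-06), a 4.12-fold change, and Pttg1 fell by 1.07 (9.51e-05). Top2a (log2 fold change 0.65, limma adjusted p = 0.0227), Prc1 (0.47, 0.0460) and Cdc25c (0.53, 0.0310) passed here, and each of these 3 calls was lost without double null 1 or either control library and with quantile normalization, median-ratio scaling, no filter on low values or edgeR on the recovered reads. Spc25 was lost without double null 1 or control 1, Ndc80 without double null 1 or control 2, and Prc1 also without double null 2. This comparison shares its control libraries with Ezh2 null and Setd2 null against control and its double null libraries with double null against Setd2 null and against Ezh2 null.

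In every group more members were higher in library 1 than in library 2. In Setd2 null 37 of 38 were higher in library 1, by a median of 0.48 on the log2 scale, where 52.5% of all genes were higher in library 1. The exception was Incenp. The shares were 28 of 38 in Ezh2 null (median 0.18), 27 in double null (0.16) and 26 in control (0.13). Of all genes, 49.5%, 50.7% and 49.2% were higher in library 1 in these groups, in the same order. In the second table all 38 were higher in library 1 in both groups, by a median of 0.42 in K735R and of 1.503 in wild-type Ezh2, where 50.1% of all genes were higher in library 1 in each. The difference between the wild-type libraries was the widest of the 6 groups and ran between 0.85 for Spc25 and 1.82 for Mki67. What differed between the libraries of a group beside their number is not given in the labels.

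**Figure D3:**
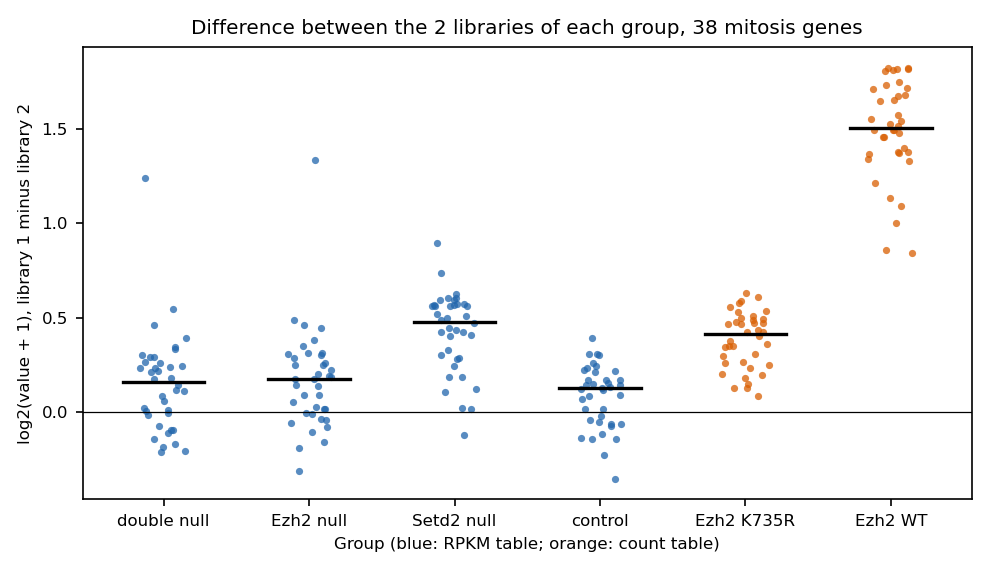
Difference between library 1 and library 2 of each group (vertical axis, log2 of RPKM + 1 in blue or of CPM + 1 in orange) for the 38 members (points), with the median as a bar. The medians are 0.16 in double null, 0.18 in Ezh2 null, 0.48 in Setd2 null, 0.13 in control, 0.42 in K735R and 1.503 in wild-type Ezh2, where the points lie between 0.85 and 1.82.

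The comparison of K735R with wild-type Ezh2 asks whether this lysine-to-arginine change alters expression. No mitosis gene passed edgeR's quasi-likelihood test, where 0% of 13203 genes rose and 0.00757% fell. The count at an unadjusted p under 0.05 was 0, against 9.24% of all genes. DESeq2 and limma on log2 CPM also called 0, and their shares of all genes are not given here. Of the 38 members, 21 (55.3%) had a positive log2 fold change, with a median of 0.01. Of all genes, 48% were positive, with a median of −0.01. The wild-type libraries bracketed the K735R libraries. The CPM of Mki67 was 238 and 171 in K735R, against 317 and 88.8 in wild-type libraries. That of Top2a was 229 and 169 in K735R, against 272 and 84.3 in wild-type libraries. For both genes wild-type 1 was the highest and wild-type 2 the lowest library. Cdc20 was at 46.2 and 36.2 in K735R and 69.4 and 19.0 in wild-type libraries, and Foxm1 was at 27.0 and 19.2 in K735R and 36.1 and 12.5 in wild-type libraries. Pttg1 followed the others here, with 15.3 and 13.2 in K735R and 18.6 and 9.80 in wild-type libraries. Anln was the exception at the top, with 123 and 84.6 in K735R and 120.3 and 46.9 in wild-type libraries. For no member were the 2 groups apart, where 20.3% of all genes were higher and 22.0% lower in K735R without overlap. Summed over the members, the CPM was 1838 and 1374 in K735R and 2310 and 773 in wild-type libraries.

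**Figure D4:**
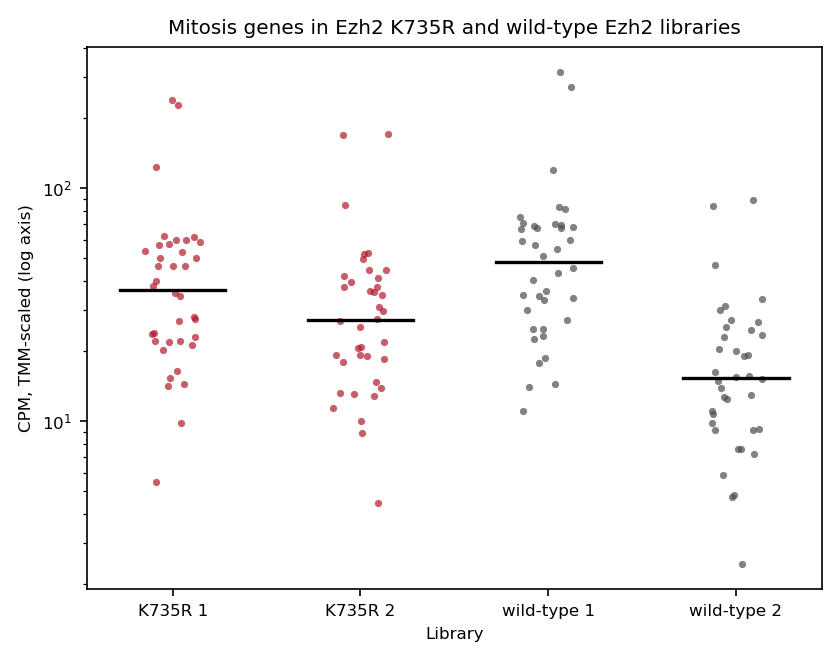
CPM of the 38 members (points, log axis) in the K735R and wild-type Ezh2 libraries, with the median of each library as a bar. Wild-type 1 lies highest and wild-type 2 lowest, with both K735R libraries between them.

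The 5 smallest p-values were those of Anln (log2 fold change 0.31 ± 0.481 SE, edgeR adjusted p = 0.883), Cdc25c (−0.44, 0.895), Kif4 (0.27, 0.903), Kif23 (0.19, 0.914) and Incenp (0.17, 0.920). The direction of the group depended on which wild-type library was used. Without wild-type 1, 19 members were called higher in K735R and all 38 were positive, with a median of 1.01, where 2.79% of 13506 genes were called higher and 1.98% lower. Without wild-type 2, 8 members were called lower in K735R and all 38 were negative, with a median of −0.58, where 4.11% of 13489 genes were called lower and 7.71% higher. In both cases the lone wild-type library was assumed to vary like the K735R libraries. A difference between the groups was not detectable with these 4 libraries, and an absence of one is not shown.

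Genes of related lists, chosen with earlier results of these data known, were counted beside the members. Of 88 other mitotic genes tested, 58 rose and 2 fell in Ezh2 null against control, with a median log2 fold change of 0.57, and 49 rose and 1 fell in double null against Setd2 null, with 0.48. Of all genes tested, 36.1% rose and 20.5% fell in the first of these comparisons and 35.6% and 19.4% in the second. With quantile normalization the same list had 43 higher and 3 lower (median 0.39) in Ezh2 null, and 31 higher and 9 lower (median 0.26) in double null cells. The smallest p-values were those of Psrc1, a microtubule-binding protein (1.82, limma adjusted p = 5.67e-06), the condensin subunit gene Ncaph (1.63, 8.31e-06), Gtse1 (1.47, 1.20e-05) and Espl1, named above. The 2 that fell in Ezh2 null, chosen after their values were seen, were Wee1, the kinase that holds Cdk1 inactive (−0.88, limma adjusted p = 0.000222), and Ckap5 (−0.44, 0.0475), a microtubule polymerase. Of 40 DNA replication genes, whose promoters mostly lack the CHR element, 37 rose and none fell in Ezh2 null (median 1.16), and 32 rose and none fell in double null (median 0.82). With quantile normalization 35 (median 0.98) and 27 (median 0.64) were higher and none lower. The helicase gene Mcm2 rose by 2.11 (limma adjusted p = 6.56e-06) and Mcm5 by 2.03 (6.72e-06), each more than any mitosis gene in that comparison.

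Of 21 transcription regulators of the cell cycle, 10 rose and 1 (Nfya, a subunit of NF-Y, chosen after its value was seen) fell in Ezh2 null, 52.4% in either direction, against 56.6% of all genes. With quantile normalization 8 were higher and 3 lower, with a median log2 fold change of 0.09. Mybl2, the B-Myb gene, rose by 1.48 (limma adjusted p = 5.12e-05), with an RPKM of 7.06 and 8.36 in double null, 6.26 and 6.56 in Ezh2 null, 3.40 and 2.31 in Setd2 null and 1.502 and 1.82 in control libraries. E2f7 (1.099), Tfdp1 (1.096) and E2f8 (1.02) rose as well. Among 7 CDK inhibitor genes, whose products hold the cell cycle back, 4 rose and 2 fell in Ezh2 null, and 3 were higher and 2 lower with quantile normalization. Cdkn2c rose by 2.50 (limma adjusted p = 1.79e-06) and Cdkn2a by 2.32 (0.000165), with an RPKM of Cdkn2a of 39.7 and 65.9 in double null, 46.9 and 81.4 in Ezh2 null, 6.22 and 5.55 in Setd2 null and 11.9 and 11.3 in control libraries. Cdkn1c rose by 1.08 (5.27e-05) and Cdkn1b fell by 0.62 (0.00143), by limma. In double null against Setd2 null 9 regulators rose and 1 fell (47.6% in either direction, against 55.0% of all genes), and 3 inhibitors rose and 2 fell. With quantile normalization 8 regulators were higher and 5 lower there, and 3 inhibitors higher and 2 lower. In Setd2 null against control 0 genes of these 4 lists were called by limma, with 12 of 88, 16 of 40, 3 of 21 and 1 of 7 at an unadjusted p under 0.05 (13.6%, 40%, 14.3% and 14.3%, against 11.6% of all genes), and edgeR on the recovered reads called 1 replication gene, higher in Setd2 null, and 0 genes of the other 3 lists.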

How the data were processed

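RNA was measured by sequencing in 12 libraries of mouse prostate organoids, 2 per genotype, from total RNA (150-base paired reads, per the labels' protocols). The submitters' processing notes name the build mm10, Bowtie and RSEM for the series, with no versions. The sources used here do not give strandedness. The authors deposited RPKM per gene for 8 libraries and, in a second table, counts per gene for 4 libraries. Whole reads (to within 0.01 read) were recovered from the RPKM of 99.97% of the genes above 0 in all 8 libraries, which gave the depths. The 3 ChIP and input samples were not analysed here. Genotype details beyond Setd2 and Ezh2, shared by the groups of a table, and 1 epithelial marker are not reported here.

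RPKM values were compared with limma 3.58.1 (trend and robust, R 4.3.3) on log2(RPKM + 1), over the 11338 genes that averaged 1 RPKM or more, in 1 model of 4 groups. A fold change on this scale understates that of low genes. Counts were compared with edgeR 4.0.16 (robust quasi-likelihood, TMM, 13203 genes). Tests were two-sided, with Benjamini-Hochberg adjustment over all genes tested and a threshold of 0.05. Both were tested on simulated data. DESeq2 1.42.0, edgeR on recovered reads, other scalings, filters, a pseudocount of 0.1, a replicate block and leaving out each library were alternatives. The second table was normalized separately, so no test spans the tables. Counting error alone is small at these depths, and 2 libraries per group limit the precision.

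The members and lists were chosen with earlier results of these data known. Values in every library are given for the 2 most abundant members of each role and for members whose direction differs from most others. Called members may be named, the 5 with the smallest p where fewer than 5 were called, and up to 4 genes with the smallest p of each other list. Genes named outside this rule are said to be so or are shown for an overlap or a changed call (Kif20a, Kif23, Anln, Top2a and Cdc23). Plk1 was shown in every library for having the largest change of its role, a choice made on its values. The epithelial genes Krt18 (in Ezh2 null), Krt8, Krt14 and Trp63 were also named outside this rule, where they were called.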

Additional observations from a re-analysis of the deposited data

How the results depend on the processing

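Of the named genes' values under other settings, 1549 kept direction and side of the threshold, 107 lost and 20 gained a call, and 13 reversed. Of the counts and shares, 100 moved little and 13 moved. In double null against Setd2 null the 25 called members became 16 with median-ratio scaling, 16 with edgeR on recovered reads and 14 to 28 with 1 library left out. In K735R against wild-type Ezh2 the count ran between 0 and 19 with 1 library left out. There the log2 fold change with 1 library left out was −0.20 to 1.14 for Anln, −1.14 to 1.03 for Cdc25c, −0.27 to 1.14 for Kif4, −0.26 to 0.89 for Kif23 and −0.25 to 0.76 for Incenp, the lower value being that without wild-type 2 and the higher that without wild-type 1. In Ezh2 null against control Anln was −0.0848 with quantile normalization, −0.0951 with median-ratio scaling, −0.0915 with edgeR on recovered reads, and −0.0469 to 0.204 with 1 library left out. In double null against control it was −0.00945 with quantile normalization, −0.00804 with median-ratio scaling and −0.00360 with edgeR on recovered reads. The cause was not tested. In the 250 bases before the gene start alone, 35.5% of members held a CHR element and 32.3% both motifs, and of all promoters 19.6% held a CHR element, 37.5% a CCAAT box, 9.01% an E2F-like site and 7.001% both a CHR element and a CCAAT box. Deviations of same-numbered libraries from their group means had a correlation of 0.933 for Ezh2 null with double null. For the other pairs of groups it was 0.101 to 0.358. The labels do not say that a number marks a shared source, and each comparison has 2 pairs. The main fits did not pair libraries, so the test of double null against Ezh2 null does not take up this shared variation. The replicate block fits 1 shift common to all groups of a table. With the replicate block 33, 29 and 35 members were called in Ezh2 null against control, double null against Setd2 null and double null against control, 1 (Anln) in Setd2 null against control and 0 in the others. Kif20a was then called higher in the first 3 of these (limma adjusted p = 0.00801, 0.0104 and 0.00549), and Anln lower in double null against Setd2 null (0.00398). The share of all genes called with the replicate block is not given here, so these counts of members are not set against a background. No member had fewer than 90 counts in a library, and each group has 2 libraries, which limits the precision of every comparison.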
